A study of Mus musculus with 10 samples.

Results

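The genes described here encode the proteins of the mitochondrial ribosome. They were chosen by symbol, as every row of the deposited protein-coding table whose name begins with Mrpl or Mrps followed by a digit, which gave 77 of the 16936 genes in the table. Of these, 48 carry an Mrpl symbol and are counted as large subunit genes, and 29 carry an Mrps symbol and are counted as small subunit genes. RNA came from cultured mouse bone marrow-derived macrophages, which had been differentiated with 50 ng/mL GM-CSF over 7 days. GM-CSF is a cytokine that yields cells with macrophage and dendritic cell features. One group of 5 samples was left untreated and the other 5 were given PLG for 24 h; the design text of the series describes it as human plasminogen. All 10 samples share the GM-CSF culture, and no strain, genotype, age or control preparation is named. No label ties a sample to a mouse or a culture, so each p-value rests only on the spread from sample to sample, which may be technical.

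The mitochondrial ribosome translates the few mRNAs encoded by mitochondrial DNA, all of them for subunits of the respiratory chain and the ATP synthase. Its rRNAs come from mitochondrial DNA, whereas every one of its proteins is encoded in the nucleus, made in the cytosol and imported. Some of these proteins descend from bacterial ribosomal proteins and others were added in the mitochondrial lineage, for instance around the central protuberance of the large subunit and the tunnel through which the new chain leaves. Promoters of such genes are known for binding sites of NRF1, of the ETS factor GABPA and of YY1.

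Promoter sequences from RefSeq, on GRCm38.p6, were matched by symbol for 68 of the 77 members, which gave 74 promoters, each of 250 bases before and 50 bases after the start of a gene. The 6 printed here belong to the 3 members with a sequence that rose most and the 3 that fell most with PLG, so that their letters can be set beside the values that follow. Each is written 5′ to 3′ on the strand of its gene. Capitals mark matches, on either strand, to NRF1 (GCGCATGCG), to ETS and GABPA (CCGGAAG), to YY1 (AAGATGGC) or to the CCAAT box (CCAAT).
Mrpl14, chr17:45686099-45686398, plus strand: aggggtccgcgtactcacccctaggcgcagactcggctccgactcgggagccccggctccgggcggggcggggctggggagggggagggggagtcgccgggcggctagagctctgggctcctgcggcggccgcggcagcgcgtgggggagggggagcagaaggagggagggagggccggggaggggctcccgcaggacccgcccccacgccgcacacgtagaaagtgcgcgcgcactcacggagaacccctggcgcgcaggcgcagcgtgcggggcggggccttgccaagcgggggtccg
Mrpl39, chr16:84735195-84735494, minus strand: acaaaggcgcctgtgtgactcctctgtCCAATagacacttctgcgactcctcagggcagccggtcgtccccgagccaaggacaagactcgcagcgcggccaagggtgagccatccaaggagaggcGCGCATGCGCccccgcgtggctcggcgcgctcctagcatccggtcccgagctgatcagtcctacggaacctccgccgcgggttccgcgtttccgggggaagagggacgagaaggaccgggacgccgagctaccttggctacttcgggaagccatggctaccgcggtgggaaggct
Mrpl52, chr14:54426659-54426958, plus strand: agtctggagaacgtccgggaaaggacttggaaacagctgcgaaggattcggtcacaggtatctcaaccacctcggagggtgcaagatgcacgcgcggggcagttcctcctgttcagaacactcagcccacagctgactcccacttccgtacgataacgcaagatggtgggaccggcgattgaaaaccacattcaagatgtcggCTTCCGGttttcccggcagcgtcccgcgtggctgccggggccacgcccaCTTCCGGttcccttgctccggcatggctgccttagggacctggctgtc
Mrps15, chr4:126046678-126046977, plus strand: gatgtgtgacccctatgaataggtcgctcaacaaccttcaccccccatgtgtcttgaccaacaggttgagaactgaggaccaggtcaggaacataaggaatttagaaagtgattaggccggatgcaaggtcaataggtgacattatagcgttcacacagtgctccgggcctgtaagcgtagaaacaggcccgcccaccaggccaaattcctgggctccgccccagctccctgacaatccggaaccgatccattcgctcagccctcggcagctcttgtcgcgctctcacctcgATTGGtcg
Mrpl42, chr10:95501900-95502199, minus strand: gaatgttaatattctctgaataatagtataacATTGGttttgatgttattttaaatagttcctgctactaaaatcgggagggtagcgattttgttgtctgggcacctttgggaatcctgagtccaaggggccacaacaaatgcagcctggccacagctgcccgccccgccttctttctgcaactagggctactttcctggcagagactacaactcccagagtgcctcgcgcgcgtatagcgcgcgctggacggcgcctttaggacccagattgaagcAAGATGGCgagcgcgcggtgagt
Mrps26, chr2:130563507-130563806, plus strand: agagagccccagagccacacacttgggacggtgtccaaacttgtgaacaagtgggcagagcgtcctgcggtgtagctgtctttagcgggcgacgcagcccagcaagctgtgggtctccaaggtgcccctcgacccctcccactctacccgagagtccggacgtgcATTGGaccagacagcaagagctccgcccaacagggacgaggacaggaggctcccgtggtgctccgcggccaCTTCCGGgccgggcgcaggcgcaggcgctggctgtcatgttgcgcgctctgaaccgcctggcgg
The Mrpl14 promoter holds none of these 4 motifs and has the highest GC content of the 6, 78.0%. In the Mrpl39 promoter the NRF1 match reads as such on both strands, and both ETS matches of the Mrpl52 promoter lie on the opposite strand. A CCAAT match stands in all 3 promoters of the falling members and, among the 3 rising ones, in that of Mrpl39.

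Over the 74 member promoters the ETS and GABPA letters occurred in 33.8%, against 18.8% of the 10284 promoters of genes tested and 8.86% of all 32851 promoters in the RefSeq table. The YY1 letters occurred in 16.2% of member promoters, 4.76% of those of tested genes and 2.75% of all. The NRF1 letters occurred in 9.46%, 3.88% and 1.75% in the same order. At least 1 of these 3 motifs was found for 37 of the 68 matched members. The remaining motifs were searched on both strands in the same way. CCAAT stood in 39.2% of member promoters and 37.2% of those of tested genes, the E-box CACGTG in 9.46% and 10.5%, the GC box GGGCGG in 52.7% and 63.2%, and TATAAA in 6.76% and 7.02%. A GC box can adjoin or overlap an ETS match. By direction of change, CCAAT was found in 9 of the 12 promoters of members that fell, 1 of the 8 of members that rose and 19 of the 54 of members that did not pass. The 12 promoters belong to 10 genes. In the same order the GC box was found in 8, 2 and 29 promoters, the E-box in 3, 0 and 4, and ETS in 3, 3 and 19. YY1 was found in 1, 2 and 9, NRF1 in 0, 1 and 6, and TATAAA in 0, 0 and 5. These are counts of letters in a fixed window, given with no test, and they say nothing of binding.

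Expression was given by the authors as FPKM, fragments per kilobase of gene length, scaled to the depth of the sample. Reads recovered from the steps of the FPKM values came to 28426106 in the shallowest sample and 64214547 in the deepest over the genes of the table. A member had a median of 543 reads per sample, with a range over members and samples of 2 to 3780. The 8 macrophage markers were present in every sample. Their summed level, most of it Lyz2, lay at 5886 to 7404 FPKM in untreated and 2574 to 2785 in PLG samples. The summed level of 6 dendritic cell markers was 38.8 to 68.7 and 525 to 593 FPKM, most of it Ccr7, and that of 8 neutrophil markers 396 to 410 and 139 to 164 FPKM, most of it Mmp8. Single markers went the other way. Of the macrophage markers, mean FPKM went from 80.0 to 177 for Adgre1 and from 15.5 to 16.7 for Fcgr1. It went from 9.67 to 2.94 for the dendritic marker Clec9a. For the neutrophil markers S100a8 and Camp it went from 7.07 to 11.9 and from 0.254 to 2.4. B cell, T or NK cell and erythroid markers summed to at most 1.06 FPKM in any sample, mast cell or basophil markers to at most 6.84, and stroma markers to 0.382 to 0.788 in untreated and 5.4 to 6.74 in PLG samples, most of it Pdgfrb. The part of these shifts in the results on the members was not tested, and in such bulk RNA a change in the mix of cells and a change in RNA per cell cannot be told apart. The libraries also differ in 3 repeat-like gene models (Gm10800, Gm10801 and Gm21738). Their summed level was 1827 FPKM in PLG 3, 2843 in PLG 4 and 11031 in untreated 2, and 29805 to 82720 in the other 7 samples.

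With PLG the mitochondrial ribosomal protein genes moved little and in no common direction: 10 rose, 11 fell and 56 did not pass. In limma on log2(FPKM + 1), with adjustment by Benjamini and Hochberg over 9997 genes and a threshold of 0.05, 60.4% of all genes tested were called, 29.1% as higher and 31.3% as lower. Among the 77 members, all of which passed the filter on low values, 21 were called, or 27.3%. The median log2 fold change of the members was 0.03 and that of all genes tested -0.02. The median size of the change, without its sign, was 0.18 for the members and 0.30 for all genes. A fold of 2 or more was reached by 14.1% of the genes tested and by 0 members on this scale, which understates the change of low genes. The plain ratio of mean FPKM exceeded 2 for 1 member, Mrpl13, at 2.21. The largest change of a member was 0.80, and 1928 genes tested, or 19.3%, had a larger one.

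Precision differed as well. The median standard error was 0.12 for the members and 0.09 for all genes tested, and the members' 95% intervals reached 0.14 to 0.76 to either side of the estimate on the log2 scale, with a median of 0.26. Of the 56 members that did not pass, 49 had an interval within a fold of 1.5 either way on the log2(FPKM + 1) scale. For low members a larger fold of plain FPKM can still lie inside such an interval. The log2 fold changes of the 56 ran from -0.25 to 0.39. All 5 PLG samples lay beyond all 5 untreated samples in 13 members, or 16.9%, against 47.2% of the genes tested. In 7 of the 13, all of the large subunit, PLG was above, and in the other 6 it was below.

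**Figure D1:**
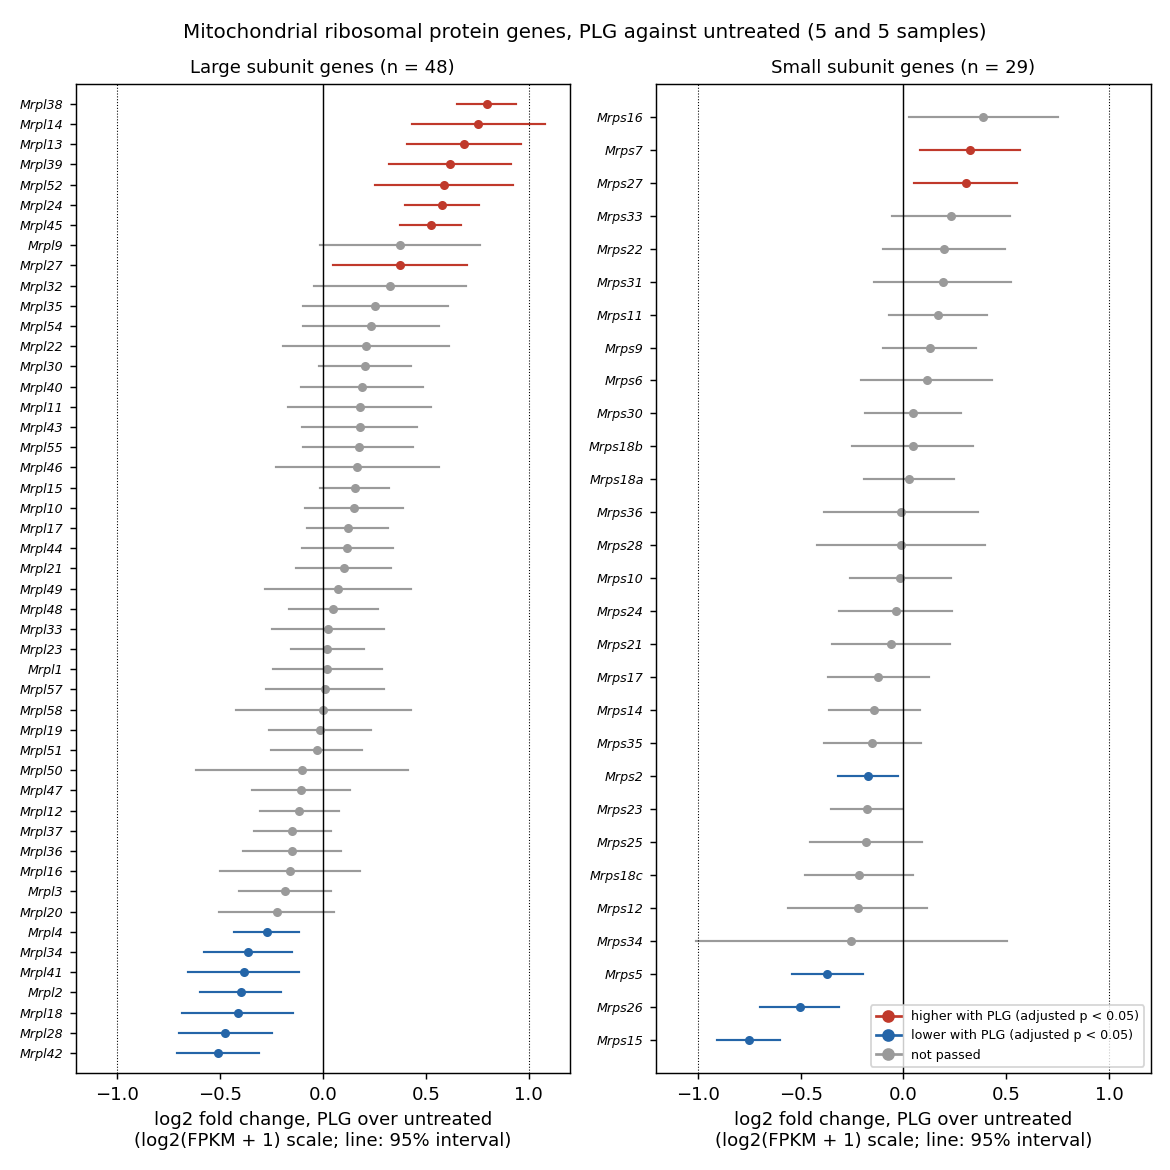
Log2 fold change of PLG over untreated for each of the 77 members, with its 95% interval from limma on log2(FPKM + 1), 5 samples per group; dotted lines mark a fold of 2. Red marks the 10 members that rose, blue the 11 that fell and grey the 56 that did not pass, and no estimate reaches a dotted line.

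**Figure D2:**
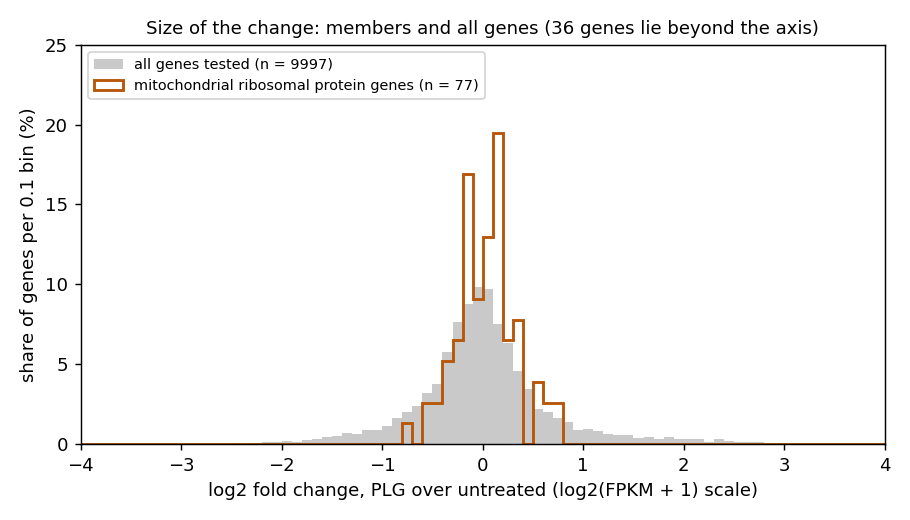
Share of genes (%) in each bin of log2 fold change, for the 9997 genes tested (grey) and the 77 members (outline). The members all lie between -0.75 and 0.80, while 14.1% of the genes tested changed by a fold of 2 or more.

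The large subunit held 15 of the 21 calls, 8 higher and 7 lower among 48 genes, with a median log2 fold change of 0.09 and 31 positive values. Mrpl38, a mitochondria-specific protein of the central protuberance (chr11:116131817-116138868 on GRCm38), showed the largest rise on the log2(FPKM + 1) scale. Its FPKM in untreated samples 1 to 5 was 6.85, 6.40, 5.88, 7.33 and 6.55, and in PLG samples 1 to 5 it was 12.1, 11.9, 11.7, 11.9 and 13.4. The groups were far apart, and the sample spread was narrow in each. The mean went from 6.60 ± 0.538 (SD, n = 5) to 12.2 ± 0.707 (SD, n = 5), which is 0.80 on the log2 scale with a standard error of 0.07 (limma adjusted p = 1.58e-07).

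Mrpl14 (chr17:45686322-45698495), the counterpart of a bacterial protein at the face where the subunits meet, had 16.9, 17.7, 9.13, 15.7 and 17.1 FPKM in untreated and 25.3, 22.7, 30.8, 28.03 and 23.4 in PLG samples. Untreated 3 stood low, and every PLG sample was above every untreated one. The log2 fold change was 0.76 ± 0.15 (SE; limma adjusted p = 6.19e-04). Mrpl45 (chr11:97315716-97329920), which sits at the exit of the tunnel and helps to hold the ribosome at the inner membrane, was among the most abundant members. It had 13.1, 16.4, 14.8, 15.6 and 13.7 FPKM untreated and 20.6, 21.8, 21.1, 24.1 and 20.6 FPKM with PLG. The change of 0.53 ± 0.07 on the log2 scale (SE; limma adjusted p = 1.53e-05) was several times its error, with no overlap.

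Mrpl24 (chr3:87919506-87923672), counterpart of a bacterial protein that binds rRNA early in assembly, had 6.60, 6.32, 6.74, 7.45 and 8.36 FPKM in untreated and 12.7, 11.3, 9.76, 10.5 and 11.1 in PLG samples. The groups were apart (log2 fold change 0.58 ± 0.08, SE; limma adjusted p = 4.06e-05), but 26.3% of its exon bases also lie in exons of Rrnad1 on the opposite strand. Where the counting took no account of strand, which the sources used here do not give, reads of the 2 genes cannot be told apart. Mrpl13 (chr15:55534094-55557748), counterpart of an early-binding bacterial protein, was among the members lowest in FPKM. Its listed length is 7936 bases against 1223 for its principal transcript. Its median of 539 reads per sample was close to the 543 over members. Its untreated samples gave 1.47, 1.06, 0.774, 1.06 and 0.757 FPKM and its PLG samples 1.79, 1.80, 2.99, 2.13 and 2.62. All PLG values exceeded the highest untreated one, from at least 221 reads per sample, and the rise was 0.69 ± 0.13 on the log2 scale (SE; limma adjusted p = 3.68e-04).

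For Mrpl39 and Mrpl52, mitochondria-specific proteins of the large subunit, 1 group was much more spread than the other. Mrpl39 (chr16:84717576-84735742) had 5.83, 10.4, 5.21, 8.40 and 7.44 FPKM untreated and 11.6, 10.7, 11.7, 12.6 and 11.8 with PLG. Untreated 2 came close to the PLG samples, which were nearly level (log2 fold change 0.62 ± 0.14, SE; limma adjusted p = 0.00142). Mrpl52 (chr14:54426909-54429756) had 8.89, 5.39, 9.32, 8.40 and 7.63 FPKM untreated and 11.3, 9.98, 18.3, 12.02 and 10.99 with PLG. PLG 3 stood high and untreated 2 low, and the groups did not overlap (log2 fold change 0.59 ± 0.15, SE; limma adjusted p = 0.00496). Mrpl27, counterpart of a bacterial protein beside the peptidyl transferase centre and named to complete the count, rose from 14.9 ± 3.08 to 19.6 ± 3.88 FPKM (SD, n = 5 each). Its groups overlapped, and its adjusted p in limma was 0.0462 with a range of 0.00314 to 0.331 over 24 alternative settings, of which 10 kept the call. It was lost on leaving out untreated 2, 3 or 4 or PLG 1, 3, 4 or 5.

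The 7 large subunit members that fell changed less than the leading risers. Mrpl42 (chr10:95480805-95501940), a mitochondria-specific protein, had 4.22, 5.15, 3.998, 4.10 and 4.16 FPKM untreated and 2.73, 2.13, 2.97, 3.03 and 2.90 with PLG, a fall without overlap (log2 fold change -0.51 ± 0.09, SE; limma adjusted p = 2.89e-04). Mrpl28 (chr17:26123500-26126613), with a bacterial counterpart, had 14.6, 18.3, 14.3, 18.7 and 18.3 FPKM untreated and 13.4, 10.98, 13.3, 9.43 and 12.2 with PLG. The highest PLG sample lay just under the lowest untreated one (log2 fold change -0.47 ± 0.10, SE; limma adjusted p = 0.00140). Mrpl2 (chr17:46646229-46650139), counterpart of a bacterial protein near the catalytic centre, had 11.5, 16.3, 13.4, 11.9 and 15.7 FPKM untreated and 9.59, 9.86, 10.8, 9.84 and 10.4 with PLG. The PLG samples were tight and all below the untreated ones (log2 fold change -0.40 ± 0.09, SE; limma adjusted p = 0.00176).

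Mrpl34 (chr8:71464959-71465747), a short protein with a bacterial counterpart, was the most abundant member per length. Its values were 31.3, 35.97, 35.5, 28.9 and 28.8 FPKM untreated and 31.2, 22.7, 24.4, 20.7 and 25.3 with PLG. PLG 1 lay within the untreated range and the other 4 below it (log2 fold change -0.36 ± 0.10, SE; limma adjusted p = 0.00634). Without the 3 samples lowest in the repeat-like models its limma adjusted p was 0.0812 and its log2 fold change -0.24. The call of Mrpl34 was kept in 23 of 24 alternatives. Mrpl18, counterpart of a bacterial protein of the central protuberance, fell from 18.2 ± 3.799 to 13.3 ± 1.68 FPKM (SD, n = 5 each; limma adjusted p = 0.0115). Mrpl41, a mitochondria-specific protein, fell from 18.4 ± 2.77 to 13.98 ± 2.59 FPKM (SD, n = 5 each; limma adjusted p = 0.0169). Mrpl4, also with a bacterial counterpart and named to complete the count, fell from 14.9 ± 1.243 to 12.2 ± 1.121 FPKM (SD, n = 5 each; limma adjusted p = 0.00571). The groups of these 3 overlapped, and with all samples scaled to a common FPKM sum their adjusted p-values in limma were 0.0829 for Mrpl18, 0.0578 for Mrpl41 and 0.126 for Mrpl4. Each of the 3 kept its call in 23 of 24 alternatives, all but that 1.

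Among abundant large subunit members that did not pass, Mrpl54 had 14.2 ± 3.79 FPKM untreated and 16.5 ± 2.27 with PLG (SD, n = 5 each; limma adjusted p = 0.204). Mrpl12 and Mrpl10 form the stalk that recruits translation factors. Mrpl12 had 14.97 ± 2.05 and 13.7 ± 1.151 FPKM (SD, n = 5 each), with a 95% interval of -0.31 to 0.08 for the log2 fold change. Mrpl10 had 11.7 ± 2.28 and 12.9 ± 0.757 FPKM (SD, n = 5 each), with an interval of -0.09 to 0.39. Mrpl50, singled out after its values were seen, turned on 1 library. It had 8.35, 2.45, 7.82, 7.63 and 8.45 FPKM untreated and 6.61, 4.68, 6.22, 7.12 and 5.47 with PLG. Its limma adjusted p was 0.739 with all samples and 0.00503 without untreated 2, when the log2 fold change went from -0.10 to -0.38.

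In the small subunit 2 of 29 genes rose and 4 fell, the median log2 fold change was -0.02, and 12 values were positive. Mrps15 (chr4:126046925-126055532), counterpart of a bacterial protein that binds the small rRNA directly, showed the largest fall of any member. Its untreated samples had 16.9, 19.7, 16.7, 17.3 and 16.5 FPKM and its PLG samples 10.7, 8.79, 10.4, 10.6 and 9.15. The groups were separated by more than either group's range, and the mean fell from 17.4 ± 1.30 to 9.94 ± 0.898 FPKM (SD, n = 5 each). The log2 fold change was -0.75 with a standard error of 0.07 (limma adjusted p = 5.40e-07).

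Mrps26 (chr2:130563742-130568695), a mitochondria-specific protein, had 3.77, 4.59, 3.55, 3.25 and 3.49 FPKM untreated and 2.48, 2.096, 2.23, 2.24 and 2.60 with PLG, again without overlap (log2 fold change -0.50 ± 0.09, SE; limma adjusted p = 2.35e-04). Mrps5 (chr2:127587222-127606829), counterpart of a bacterial protein at the entry of the mRNA channel, had 3.13, 2.79, 2.95, 3.06 and 3.15 FPKM untreated and 1.88, 1.99, 2.51, 2.25 and 1.94 with PLG. Its fall of 0.37 on the log2 scale also left the groups apart (limma adjusted p = 0.00120). Mrps2, with a bacterial counterpart, had 9.75 ± 0.764 FPKM untreated and 8.54 ± 0.549 with PLG (SD, n = 5 each; limma adjusted p = 0.0400), with groups that overlapped, and kept its call in 12 of 24 alternatives (adjusted p 0.00874 to 0.378). The call was lost on leaving out untreated 1, 4 or 5 or PLG 2, 3, 4 or 5 (limma adjusted p 0.0529 to 0.101).

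Neither riser of the small subunit was separated from its controls. Mrps7, counterpart of a bacterial protein of the head, had 7.61, 12.1, 9.08, 7.83 and 9.19 FPKM untreated and 12.1, 10.04, 10.9, 13.8 and 11.4 with PLG (log2 fold change 0.32, limma adjusted p = 0.0232). Untreated 2 lay among the PLG samples. Mrps27, a protein of the pentatricopeptide repeat family, had 3.76, 2.59, 3.32, 3.50 and 3.53 FPKM untreated and 3.25, 5.62, 4.30, 4.14 and 4.58 with PLG (log2 fold change 0.30, limma adjusted p = 0.0368), and 24.2% of its exon bases lie in exons of a gene on the opposite strand. Over the alternatives Mrps7 kept its call in 17 of 24 (adjusted p 0.00132 to 0.0778) and Mrps27 in 12 of 23 (0.0086 to 0.141). Leaving out PLG 4 ended both calls (limma adjusted p = 0.0629 and 0.0522). The Mrps7 call was also lost without untreated 1 or untreated 4 (0.0608 and 0.0592), and the Mrps27 call without untreated 2, untreated 3, PLG 2, PLG 3 or PLG 5 (0.0573 to 0.0961).

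Mrps21, Mrps23 and Mrps24, abundant members that did not pass, had 15.6 ± 2.26 and 14.98 ± 3.03, 16.1 ± 1.45 and 14.1 ± 1.42, and 8.63 ± 1.36 and 8.41 ± 1.52 FPKM in untreated and PLG samples (SD, n = 5 each). The paralogs Mrps18a, Mrps18b and Mrps18c had 4.94, 4.18 and 4.57 FPKM untreated and 5.06, 4.41 and 3.79 with PLG, none of them past the threshold. Without untreated 4 Mrps23 passed as lower (limma adjusted p = 0.0177), and without untreated 3 so did Mrps18c (0.0439). Mrps18a and Mrps30 are named as small subunit proteins but are known to sit in the large one. Mrps30 had 1.87 ± 0.407 and 1.95 ± 0.221 FPKM (SD, n = 5 each). Counting these 2 by structure left the calls at 8 higher and 7 lower of 50 and 2 and 4 of 27, with medians of 0.06 and -0.04. Mrps36, known also as a subunit of the oxoglutarate dehydrogenase complex, had 3.96 ± 1.05 and 3.95 ± 1.121 FPKM (SD, n = 5 each). Mrps16, with a bacterial counterpart and singled out after its values were seen, had 1.97, 4.47, 1.84, 2.23 and 2.08 FPKM untreated and 3.30, 3.68, 4.35, 3.52 and 2.61 with PLG. Its limma adjusted p was 0.0613 with all samples and 6.02e-04 without untreated 2, with log2 fold changes of 0.39 and 0.56.

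**Figure D3:**
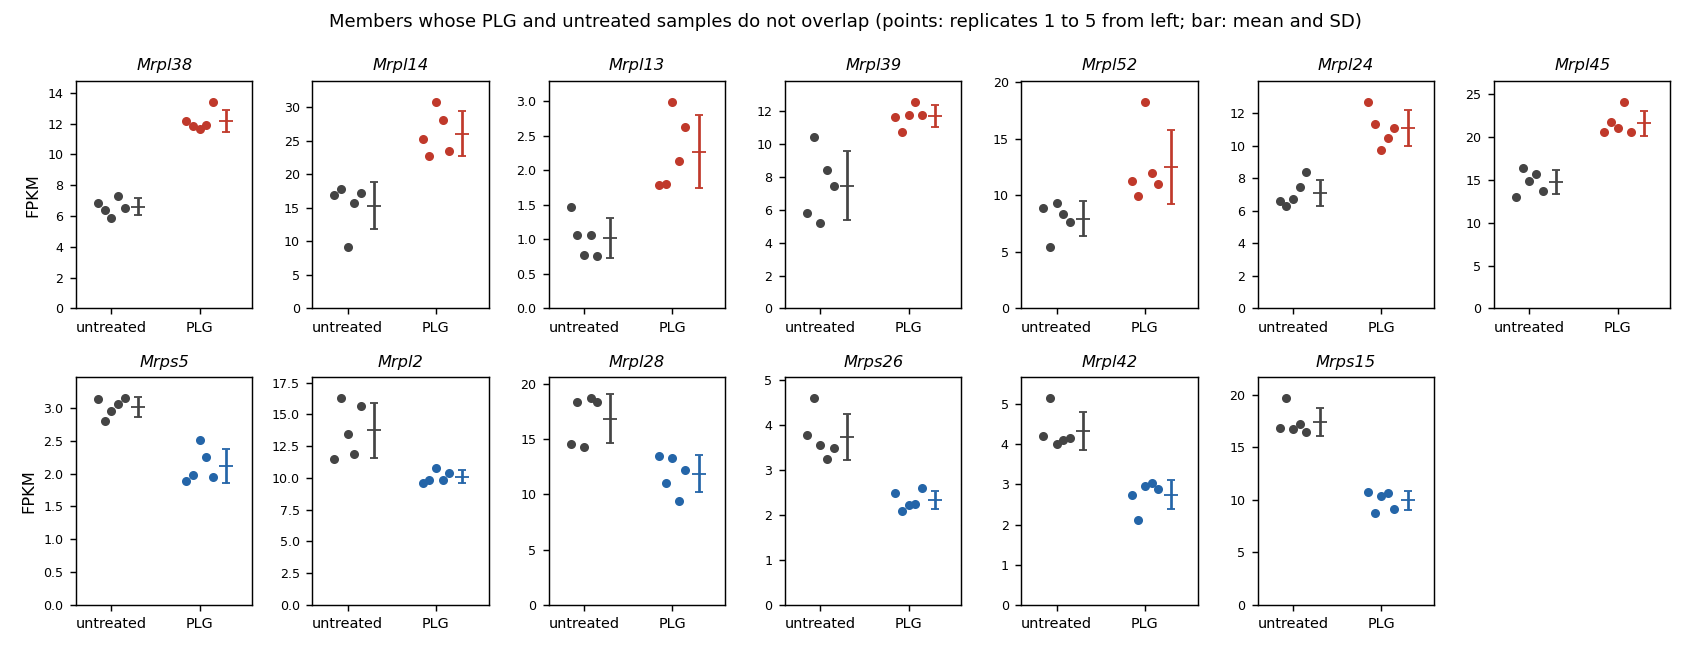
FPKM by sample for the 13 members in which all PLG samples lie on 1 side of all untreated samples; points are replicates 1 to 5 from left to right, bars the mean and SD, and each axis starts at 0. The 7 members with PLG above are large subunit genes, and 3 of the 6 with PLG below (Mrps5, Mrps26 and Mrps15) are small subunit genes.

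Members of either ancestry were called in each direction. Of 46 members with a bacterial homologue 5 rose and 8 fell (median log2 fold change 0.02), and of 31 without one 5 rose and 3 fell (median 0.05). By level, 16 of 40 members with a mean of 5 FPKM or more were called (40.0%), 8 in each direction. Of the other 37, 5 were called (13.5%), 2 higher and 3 lower. The share over all genes tested was 60.4%, and 67.9% in the separate fit with a filter of 5 FPKM. Adding 1 to each FPKM also shrinks the changes of low members. These splits were not tested.

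The summed level of the 77 members was 530.7 ± 21.1 FPKM in untreated and 540.6 ± 38.6 in PLG samples (SD, n = 5 each), with ranges of 503.3 to 556.5 and 488.5 to 580.8. The large subunit genes summed to 374.1 ± 14.9 and 394.6 ± 26.3 FPKM and the small subunit genes to 156.5 ± 7.66 and 146.1 ± 13.9 FPKM (SD, n = 5 each), so the ranges of each overlapped between groups. The ratio of the large to the small sum was 2.27, 2.42, 2.50, 2.40 and 2.38 in untreated and 2.69, 2.74, 2.78, 2.49 and 2.85 in PLG samples. PLG 4 fell within the untreated range and the other 4 above it. Abundant genes weigh most in this ratio. Of the abundant called members, Mrpl14 and Mrpl45 rose and Mrps15 fell, so leaving out these 3 had to narrow the difference in the ratio. The abundant large subunit members that fell, Mrpl34, Mrpl41, Mrpl18 and Mrpl28, were kept. Without the 3 the ratio was 2.48 ± 0.113 in untreated and 2.56 ± 0.145 in PLG samples (SD, n = 5 each). The ranges were then 2.33 to 2.64 and 2.32 to 2.71, an overlap that the choice of genes favours. Both ratios are given with no test. Within a group the libraries low in the repeat-like models had high member levels, and often high levels of other genes. PLG 3 was the highest PLG sample for 31 members and for 2698 of the 9997 genes tested, and PLG 4 for 24 members and 2870 genes. PLG 2 was the lowest for 35 members and 3516 genes, and untreated 2 was the highest untreated sample for 28 members and 3228 genes. The part of the repeat-like models in these levels was not tested. With their level as a covariate 19 members were called, 18 of them among the 21.

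**Figure D4:**
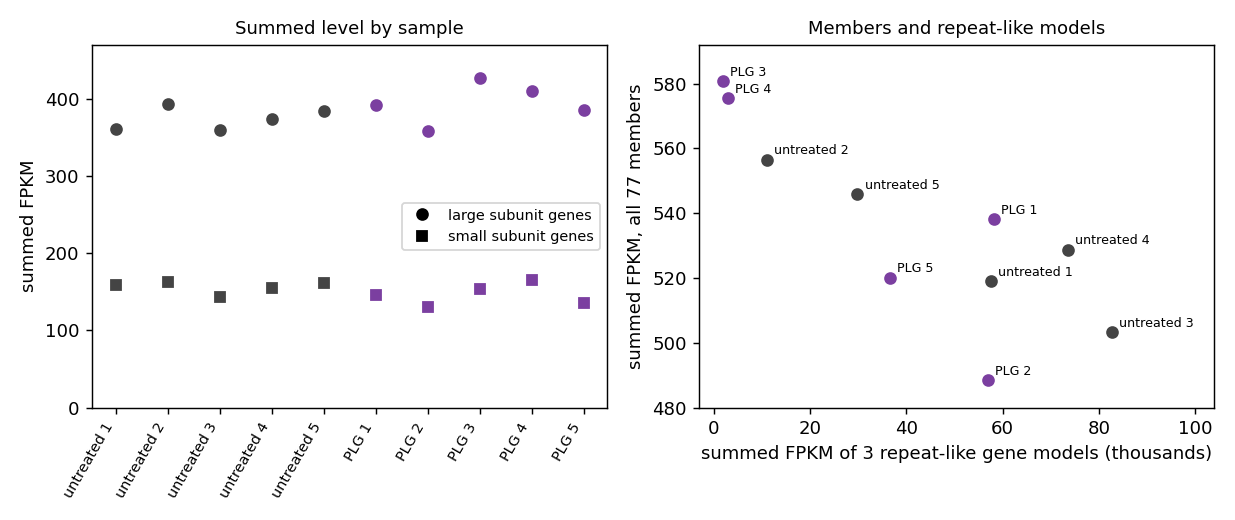
Left, summed FPKM of large (circles) and small (squares) subunit genes in each sample, with PLG in purple and untreated in grey. Right, summed FPKM of all 77 members against the summed FPKM of 3 repeat-like gene models, with both axes linear and the vertical axis not starting at 0; PLG 3 and PLG 4, lowest in the repeat-like models, have the highest member sums.

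Levels per length differed between members far more than between groups. Mean FPKM over the 10 samples ran from 1.22 for Mrps35 to 28.5 for Mrpl34, and the medians over members were 5.18 untreated and 5.56 with PLG. The next in order below Mrpl34 were Mrpl14 at 20.7, Mrpl45 at 18.2 and Mrpl27 at 17.3 FPKM, neighbours whose samples overlapped. The order was almost the same in each group (Spearman's rho 0.96 over 77 genes, which share libraries and gene lengths). Across genes the mean FPKM fell with the listed gene length (rho -0.78), while the median number of reads did not (rho 0.13). The listed length is that of all annotated exons together, 607 to 8631 bases, and was 1.47 times that of the principal transcript at the median and up to 15.3 times. Levels compared between genes depend on that length, while the plain ratio of groups within a gene does not. The log2 fold change does depend on it, because the 1 added to each FPKM weighs more where a long length makes FPKM low.

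Exon overlap with neighbours bore on a few members. Of the 77, 32 share at least 1 exon base with another annotated gene and 9 share 20% or more. Among these 9, Mrpl24 and Mrps27 were called, and among the 45 members with no shared base 4 rose and 9 fell. Mrps34, singled out after its values were seen, shares 77.8% of its exon bases with Nme3 and, on the opposite strand, Mapk8ip3. It had 1.29, 3.06, 0.081, 2.09 and 0.860 FPKM untreated and 1.40, 0.024, 2.18, 1.14 and 0.432 with PLG. Untreated 3 and PLG 2 rested on 6 and 2 reads, while the other samples had 63 to 205. The SD was 77.6% of the mean in untreated and 81.3% in PLG samples, the widest of any member, and the interval of -1.01 to 0.50 for its log2 fold change allows a fold of 2 lower. Mrps25, also singled out after its values were seen, shares 69.8% with Nr2c2 on the opposite strand. It had 1.42 ± 0.362 and 1.13 ± 0.298 FPKM (SD, n = 5 each).

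**Figure D5:**
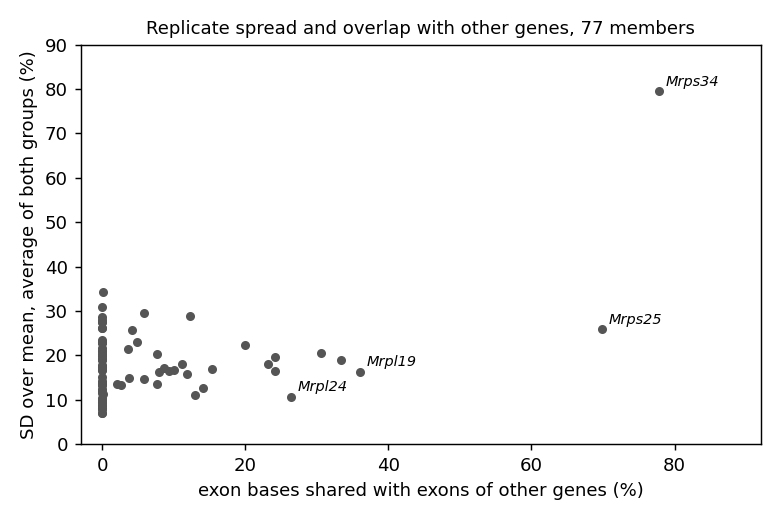
Replicate spread of each member, as the SD in percent of the mean averaged over the 2 groups, against the percent of its exon bases that lie in exons of other genes. Mrps34 stands alone at 79.5% spread and 77.8% shared bases, while Mrps25 with 69.8% shared bases lies among the other members.

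Several members lie head to head with another gene, so that the starts of transcription on the 2 strands are close. A protein-coding gene of the table starts within 1000 bases on the other strand for 24 members, and the neighbour was tested for 20 of them. Over these 20, 6 members and 9 neighbours were called, where 60.4% of all genes tested were, and in 4 pairs both were. Mrpl46 and Mrps11 are each other's neighbour and are counted from both sides. Mrpl14 and Tmem63b both rose (log2 fold change 0.40 for Tmem63b), Mrpl2 and Klc4 both fell (-0.86 for Klc4), and Mrpl41 and Pnpla7 both fell (-1.42 for Pnpla7). Mrpl18 fell while Tcp1, a subunit of the cytosolic chaperonin that starts 37 bases away, rose by 0.35. In 5 pairs the neighbour alone passed: Psma2, Fau and Eme2 rose (0.63, 0.46 and 0.45) and Ndufb5 and Ncapd2 fell (-0.43 and -1.34) beside Mrpl32, Mrpl49, Mrps34, Mrpl47 and Mrpl51. In 2 pairs the member alone passed, Mrps7 and Mrps27. Mrpl14 shares 11.2% of its exon bases with Tmem63b and Mrpl18 shares 10.1% with Tcp1. Mrpl46 and Mrps11, members of opposite subunits whose starts are 30 bases apart, were singled out after their values were seen. Both had a log2 fold change of 0.17 and neither passed (limma adjusted p = 0.453 and 0.204). They share exon bases on opposite strands, 12.2% of Mrpl46 and 7.97% of Mrps11.

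The other genes of mitochondrial gene expression were read from the same fit, with 60.4% of all genes called as the background. Of 5 ribosomal proteins under other symbols, Chchd1 rose from 12.1 ± 1.38 to 15.8 ± 1.79 FPKM and Ptcd3 fell from 3.60 ± 0.505 to 2.95 ± 0.204 (SD, n = 5 each; limma adjusted p = 0.00321 and 0.0480). The Ptcd3 call was lost without untreated 2, 4 or 5 or any 1 of the PLG samples (limma adjusted p 0.0502 to 0.106). Aurkaip1, the most abundant, had 15.6 ± 1.38 and 16.2 ± 3.20 FPKM (SD, n = 5 each) and did not pass. Of 24 genes for assembly of the ribosome and modification of its rRNA, 5 rose and 1 fell (median log2 fold change 0.01). The largest rise was that of Nsun4, the methyltransferase that joins Mterf4 in the assembly of the large subunit, with 0.782, 1.46, 1.19, 1.27 and 1.44 FPKM untreated and 3.800, 4.08, 3.88, 3.63 and 3.71 with PLG. Its change, 1.12 on the log2 scale (limma adjusted p = 2.08e-07), exceeded that of any member. Trub2, a pseudouridine synthase, rose by 0.32 (limma adjusted p = 0.00263). Mettl17, a factor of small subunit assembly, fell, with 8.30, 6.199, 7.42, 6.17 and 9.61 FPKM untreated and 3.54, 3.67, 3.78, 5.09 and 3.37 with PLG (log2 fold change -0.80, limma adjusted p = 6.73e-05). Mpv17l2 had 16.1 ± 2.47 and 13.9 ± 1.41 FPKM (SD, n = 5 each) and passed as lower only without untreated 2 among the samples left out (limma adjusted p = 0.0378, and 0.119 with all).

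Among 19 mitochondrial translation factors and activators 2 rose and 5 fell (median -0.12). Gfm1, the elongation factor that moves the ribosome along the mRNA, fell from 10.5 ± 1.21 to 7.51 ± 0.457 FPKM, and Lrpprc, which stabilises mitochondrial mRNAs, from 10.2 ± 0.706 to 6.07 ± 0.242 (SD, n = 5 each; limma adjusted p = 3.49e-04 and 5.79e-07). Coa3, needed for the synthesis of cytochrome oxidase subunit 1, rose from 8.59 ± 2.80 to 13.8 ± 1.07 FPKM (SD, n = 5 each; limma adjusted p = 0.00834), with a log2 fold change of 0.69, or 0.46 without untreated 2. Tufm, the elongation factor that brings tRNA to the ribosome, had 13.5 ± 1.79 and 13.3 ± 0.871 FPKM (SD, n = 5 each) and did not pass. Of 11 genes for transcription and replication of mitochondrial DNA 1 rose and 4 fell (median -0.17). Polg, the DNA polymerase, rose from 2.41 ± 0.198 to 4.41 ± 0.501 FPKM, while Tfb2m, a transcription factor of mitochondrial DNA, fell from 5.15 ± 0.630 to 3.04 ± 0.476 and Ssbp1, its single-strand binding protein, from 2.41 ± 0.492 to 1.65 ± 0.199 (SD, n = 5 each; limma adjusted p = 1.17e-05, 1.33e-04 and 0.0119). Polrmt, the RNA polymerase, had 5.92 ± 0.515 and 5.18 ± 0.706 FPKM (SD, n = 5 each) and did not pass.

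Most of the mRNAs that this ribosome translates fell. Of 12 mRNAs encoded by mitochondrial DNA that were tested, 8 fell and 0 rose, all 12 had negative values, and the median log2 fold change was -0.48. The row mt-Nd1 had 1356, 1233, 1276, 1358 and 1280 FPKM untreated and 884, 780, 802, 754 and 804 with PLG (log2 fold change -0.69, limma adjusted p = 9.03e-08). The fall was 0.64 on the log2 scale for mt-Cytb and for mt-Nd2 (limma adjusted p = 6.53e-07 and 1.96e-06). Among those that did not pass, mt-Atp6 had 7.77 ± 0.844 and 6.88 ± 2.02 FPKM (SD, n = 5 each), far under the median of 640 for the 12 in untreated samples. The rows lay at 2 levels. Untreated means were 2.66 to 7.77 FPKM for mt-Nd4l, mt-Co3, mt-Nd3, mt-Co2 and mt-Atp6, and 637 to 4835 for the others. The others all fell without overlap, while of the low rows only mt-Co2 was called (limma adjusted p = 0.0464). The reason for the low levels was not tested. Calls in the other lists were 2 higher and 7 lower of 26 genes for mitochondrial RNA processing and decay, 4 and 7 of 31 for protein import, and 7 and 4 of 14 for chaperones and proteases. Among 80 nuclear genes of the respiratory chain 3 rose and 29 fell (median -0.14). Among 86 genes chosen by symbols of cytosolic ribosomal proteins 17 rose and 8 fell (median 0.07). That choice by symbol also took in Rps19bp1 and rows with pseudogene names, such as Rpl9-ps6, which was called higher.

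Of 15 regulators of genes for mitochondria 3 rose and 4 fell (median -0.15). Myc, a transcription factor of growth genes including those of ribosomes, had 7.12, 6.41, 5.87, 4.94 and 5.86 FPKM untreated and 1.49, 1.44, 1.43, 1.37 and 1.86 with PLG. No PLG sample came near an untreated one (log2 fold change -1.48, limma adjusted p = 9.89e-09). Ppargc1b, a coactivator of mitochondrial genes, fell from 10.6 ± 1.17 to 5.60 ± 0.476 FPKM (SD, n = 5 each; limma adjusted p = 1.16e-06). Perm1, a regulator best known from muscle, rose from 1.87 ± 0.766 to 5.41 ± 0.457 FPKM (SD, n = 5 each; limma adjusted p = 6.76e-06). Max, the partner of Myc, had 18.7 ± 2.73 and 16.1 ± 1.39 FPKM (SD, n = 5 each) and did not pass (limma adjusted p = 0.0785, or 0.0168 without untreated 4).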

How the data were processed

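Total RNA libraries of 5 untreated and 5 PLG samples were made with a NuGen universal RNA-seq kit, per the labels' protocols. Per the submitters' processing notes, which give no roles, the build was GRCm38.p6 and the tools were STAR 2.7.3a, featureCounts 2.0.0, cutadapt 2.10, FastQC 0.11.9 and DESeq2 1.24.0. The strand setting of the counting is not given in the sources used here. The authors deposited FPKM for 16936 protein-coding genes. The FPKM steps gave whole reads for 100% of the low values tested in each sample (tolerance 0.1 read), with denominators of 31977228 to 70736983 reads.

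Genes at 1 FPKM in at least 5 samples were tested in limma 3.58.1 (R 4.3.3) on log2(FPKM + 1), with an intensity trend and treatment as the only term. The fit was tested on simulated data. Exon overlap, gene neighbours and lengths came from the GENCODE annotation of GRCm38, in which all 77 members had the identifiers and coordinates of the table. Neighbours were genes on the other strand starting within 1000 bases, with up to 200 bases of overlap. The members, lists and motifs were chosen with earlier results of these data known. Named were, per subunit, the called members with the largest changes (6 in each direction, or 5 for the small subunit), the 3 most abundant and the 3 most abundant not passed, 6 members by name, and per list up to 3 called genes and the most abundant not passed. Genes of the lists for RNA processing, import and chaperones are given as counts only. Alternatives were pseudocounts of 0.1 and 5, no filter or one of 5 FPKM, common-sum, median-of-ratios and quantile scaling, eBayes without trend or robust, a replicate block, voom on the recovered reads with TMM scaling, and omission of each sample. Chosen after the data had been seen were removal of the repeat-like models, their level as a covariate and leaving out the 3 samples lowest in them.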

Additional observations from a re-analysis of the deposited data

Results flagged for a closer look

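Dixon's test at the 95% level was applied to 118 groups of 5 samples, and 16 held a sample apart from the other 4. Without 6 genes singled out after their values were seen, it was 14 of 106 groups, where chance gives about 1 in 20. Untreated 2 was that sample 5 times, or 3 without those genes. It was high for Mrpl42 at 5.15 FPKM (others up to 4.22), Mrps15 at 19.7 (up to 17.3) and Mrps16 at 4.47 (up to 2.23), and low for Mrpl50 at 2.45 (others from 7.63) and Coa3 at 3.76 (others from 8.65). Untreated 3 was low for Mrpl14 at 9.13 FPKM (others from 15.7), and untreated 5 was high for Lrpprc at 11.4 (up to 10.1).

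Among PLG samples, PLG 4 was high for Mrps30 at 2.34 FPKM (others up to 1.88), Mettl17 at 5.09 (up to 3.78) and Perm1 at 6.21 (up to 5.36). PLG 5 was high for Mrpl38 at 13.4 (up to 12.1) and Myc at 1.86 (up to 1.49), and PLG 1 for Mrps2 at 9.52 (up to 8.35) and mt-Atp6 at 10.4 (up to 6.58). PLG 3 was high for Mrpl52 at 18.3 (up to 12.02) and low for Ppargc1b at 4.75 (others from 5.72). Without PLG 1, mt-Atp6 passed as lower (limma adjusted p = 0.00619).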

How the results depend on the processing

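Over 24 alternatives no call reversed. No called member's log2 fold change changed sign, while those of 25 of the 56 members not passed took either sign. Of the 21 called members 13 kept their call in every alternative that tested them, and 41 of the 56 others were never called. The number of members called ran from 16 (common FPKM sum) to 25 (without untreated 2), with 39.9% (no filter) to 67.9% (filter of 5 FPKM) of genes called. Small subunit genes called higher, 2 in the report, numbered 0 with no filter, 1 with a filter of 5 FPKM, 1 with a common FPKM sum, 1 with that sum without the repeat-like models, 1 with their level as a covariate, 0 to 2 over samples left out, and 3 with median-of-ratios scaling and with quantile normalization, which both added Mrps16. Those called lower, 4 in the report, numbered 2 with a filter of 5 FPKM, under which 41 members were tested. Large subunit genes called lower, 7 in the report, numbered 4 with a common FPKM sum. The small subunit median of -0.02 was -0.11 without the 3 samples lowest in the repeat-like models and -0.12 with their level as a covariate. The cause of these shifts, other than fewer genes or samples, was not tested. A fold of 2 was reached by 1 member, Mrpl13, with a pseudocount of 0.1 and in voom.

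The values showed no clear pairing of samples by replicate number. Deviations of same-numbered samples correlated at 0.099, -0.118, -0.117, -0.121 and -0.098, and 1 of 5 numbers matched its own best. No label states whether the numbers pair samples, and these correlations cannot settle it. With the replicate block 19 members and 5785 genes were called, and small subunit genes called higher numbered 0, since Mrps7 and Mrps27 lost their calls (limma adjusted p = 0.0593 and 0.0857). The lowest read count of any member was 2, for Mrps34 in PLG 2.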
